A study of Homo sapiens with 11 samples.

Results

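Bivalent regions are stretches of chromatin that carry both trimethylation of histone H3 lysine 4 (H3K4me3) and trimethylation of histone H3 lysine 27 (H3K27me3). They were sought in HK2 cells, an immortalized line of human proximal tubular epithelial cells, the cells that line the first segment of the nephron after the glomerulus. The genome (GRCh37/hg19, chromosomes 1 to 22 and X) was divided into bins of 200 bp. A mark was called on in a bin where its deposited ChIP-seq peaks covered at least 100 bp of that bin in both replicates, and adjacent bins with both marks on were joined. This gave 1626 bivalent regions out of 85458 regions of all 5 combinations of marks. The other combinations were H3K4me3 with acetylation of lysine 27 (H3K27ac) in 12871 regions, H3K4me3 alone in 19618, H3K27me3 without H3K4me3 in 21816, and H3K27ac without either in 29527.

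The line was unmodified and grown in 1 condition, in serum-containing DMEM-F12 medium with antibiotics and a small amount of DMSO. The data were 2 peak lists for each of H3K4me3, H3K27me3 and H3K27ac, and 2 RNA-seq libraries with a level for every annotated gene and transcript. No label says that the replicates came from separate cultures, so their spread may be technical. Input DNA and H3K27ac HiChIP libraries belong to the series and were not used here. The peak lists hold positions without height or score and the RNA levels are length- and depth-normalized fragments (FPKM), so neither kind of file carries its sequencing depth. Because each list was made from bulk cells, 2 marks in a bin may lie on the same nucleosome, on different alleles or in different cells, and these cases cannot be told apart.

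H3K4me3 is deposited at promoters by the trithorax-related SET1 and MLL complexes, mostly where CpG dinucleotides are dense, and is usual at promoters that are transcribed. H3K27me3 is deposited by Polycomb repressive complex 2, whose catalytic subunit is EZH2, and marks genes that are held silent. The combination was first described in embryonic stem cells at promoters of developmental regulators, where it is taken to keep genes silent but able to switch on, and it also persists in differentiated cells. Lysine 27 of a histone tail can carry acetylation or trimethylation but not both at once, and H3K27ac accompanies active promoters and enhancers.

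The 6 stretches of reference sequence below are shown because they come from the regions on which the description turns. These are the longest ones (POU3F2, BCL11A and TNRC18), the longest run (PAX2) and short promoter regions with no H3K27ac (VAT1L and PCSK1N). Of the short ones, PCSK1N was transcribed, and of the longest ones TNRC18 was. Each is 300 bases long and lies within a bivalent region, as near to its centre as was possible away from untranslated sequence. They are printed from GRCh37 on the plus strand, with CpG dinucleotides in capitals. The genome average was 2.96 CpG per 300 bases.
POU3F2, chr6:99281751-99282050, from -699 to -400 relative to the transcription start site (TSS), outside protein-coding genes, 11 CpG: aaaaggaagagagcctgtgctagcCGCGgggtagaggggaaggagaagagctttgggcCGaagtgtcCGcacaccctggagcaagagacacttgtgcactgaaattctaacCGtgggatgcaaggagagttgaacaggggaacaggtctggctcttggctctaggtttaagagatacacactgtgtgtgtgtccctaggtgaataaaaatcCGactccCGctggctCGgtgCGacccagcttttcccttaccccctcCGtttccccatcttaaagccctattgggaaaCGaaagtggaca
BCL11A, chr2:60778151-60778450, from 2339 to 2638 relative to the TSS of this minus-strand gene, intron, 7 CpG: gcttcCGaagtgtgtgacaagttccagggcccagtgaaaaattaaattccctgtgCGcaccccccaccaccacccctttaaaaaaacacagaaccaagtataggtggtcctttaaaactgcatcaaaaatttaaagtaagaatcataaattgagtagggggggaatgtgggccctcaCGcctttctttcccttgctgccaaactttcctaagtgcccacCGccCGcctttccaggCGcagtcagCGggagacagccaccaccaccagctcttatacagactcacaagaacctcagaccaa
TNRC18, chr7:5461451-5461750, from 1715 to 2014 relative to the TSS of this minus-strand gene, intron, 15 CpG: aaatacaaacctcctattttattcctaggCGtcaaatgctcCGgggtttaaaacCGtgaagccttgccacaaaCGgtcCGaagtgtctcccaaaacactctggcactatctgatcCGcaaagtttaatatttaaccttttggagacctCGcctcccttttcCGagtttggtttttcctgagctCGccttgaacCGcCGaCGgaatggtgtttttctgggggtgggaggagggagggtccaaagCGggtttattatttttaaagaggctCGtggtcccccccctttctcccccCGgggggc
PAX2, chr10:102505031-102505330, from -308 to -9 relative to the TSS, in an intron of longer PAX2 transcripts, 17 CpG: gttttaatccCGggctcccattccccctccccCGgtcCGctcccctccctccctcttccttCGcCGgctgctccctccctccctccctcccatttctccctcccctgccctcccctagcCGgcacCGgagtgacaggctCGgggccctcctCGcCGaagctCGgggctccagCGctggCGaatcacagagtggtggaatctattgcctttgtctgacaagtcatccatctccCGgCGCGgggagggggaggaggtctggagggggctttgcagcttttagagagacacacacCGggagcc
VAT1L, chr16:77822581-77822880, from 120 to 419 relative to the TSS, overlapping coding exon, 31 CpG: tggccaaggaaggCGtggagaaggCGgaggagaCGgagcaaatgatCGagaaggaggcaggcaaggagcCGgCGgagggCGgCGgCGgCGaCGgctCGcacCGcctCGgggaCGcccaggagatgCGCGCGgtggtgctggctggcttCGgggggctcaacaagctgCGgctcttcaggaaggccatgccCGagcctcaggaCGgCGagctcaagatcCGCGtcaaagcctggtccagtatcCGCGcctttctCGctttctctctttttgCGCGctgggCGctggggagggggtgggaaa
PCSK1N, chrX:48693631-48693930, from 82 to 381 relative to the TSS of this minus-strand gene, overlapping coding exon, 40 CpG: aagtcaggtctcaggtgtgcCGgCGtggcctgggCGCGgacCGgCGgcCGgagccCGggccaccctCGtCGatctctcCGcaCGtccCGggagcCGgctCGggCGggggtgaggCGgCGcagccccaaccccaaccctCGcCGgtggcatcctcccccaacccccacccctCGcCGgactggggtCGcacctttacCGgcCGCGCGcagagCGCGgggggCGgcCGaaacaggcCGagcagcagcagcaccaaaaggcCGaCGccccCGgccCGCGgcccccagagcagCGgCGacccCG
All 6 windows held more CpG dinucleotides than the genome average, from 7 in the BCL11A intron to 40 in PCSK1N. The GC content ran from 49.7% in BCL11A to 77.3% in PCSK1N.

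CpG-rich sequence was general among the bivalent regions. Their median GC content was 69% (quartiles 64 and 73.25%) and their median ratio of observed to expected CpG was 0.812. Taking GC above 50% together with a CpG ratio above 0.6 as CpG-island-like, 1452 of 1626 bivalent regions qualified, or 89.3% (95% Wilson interval, 87.7 to 90.7%, which covers counting error only, here and at every later interval), whereas 1.11% of all 600-bp windows of the genome did. The share was 79.2% for regions of H3K4me3 with H3K27ac, 57.2% for H3K4me3 alone, 6.37% for H3K27me3 without H3K4me3 and 1.80% for H3K27ac alone. Among regions of at least 600 bp the order was kept at the top, with 96.4% for bivalent regions, 86.7% for H3K4me3 with H3K27ac and 70.5% for H3K4me3 alone. Bivalent regions were therefore closest in base composition to promoters with H3K4me3 and far from the remaining H3K27me3 regions. Within the bivalent set, the island-like share was 67.6% for regions of 200 bp and 92.5% for those of 400 to 800 bp.

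Bivalent regions were short. Their lengths ran from 200 to 3600 bp with a median of 600 bp (quartiles 400 and 1000 bp), and together they covered 1150.2 kb in 5751 bins, 0.0379% of the binned genome. A single bin made up 318 of them (19.6%), 840 (51.7%) measured 400 to 800 bp, 433 (26.6%) measured 1000 to 1800 bp and 35 (2.15%) measured 2000 bp or more. Of all H3K4me3 bins, 5.10% were bivalent, and of all H3K27me3 bins 5.97%.

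The longest bivalent region lay at TNRC18, a gene for a large nuclear protein, at chr7:5459801-5463400 (3600 bp), followed by 3400 bp each at BCL11A (chr2:60776601-60780000) and POU3F2 (chr6:99280201-99283600). BCL11A is a zinc finger repressor known for silencing fetal globin, and POU3F2 is a POU-domain factor of neural development. At POU3F2 the H3K4me3 peaks covered 3378 and 3400 bp of the region in replicates 1 and 2, the H3K27me3 peaks covered all 3400 bp in each, and no H3K27ac peak touched it. At BCL11A the H3K4me3 peaks covered 3400 and 3311 bp, the H3K27me3 peaks all of it, and H3K27ac covered 743 bp in replicate 1 and 0 in replicate 2. The TNRC18 region was the exception among these, with H3K27ac over all 3600 bp in replicate 1 and over 708 bp in replicate 2. TNRC18 had an FPKM of 6.59 in library 1 and 6.40 in library 2, 58.9% of it from transcripts that start within 1 kb of a bivalent region.

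Regulators of development made up most of the next long regions. GFI1, a zinc finger repressor of blood and inner ear development (chr1:92949801-92952600), and EMX1, a homeobox factor of the forebrain (chr2:73143001-73145800), each had 2800 bp. NKX2-2, a homeobox factor of the ventral neural tube and of pancreatic islets, had 2600 bp (chr20:21492801-21495400). The beta-1 adrenergic receptor gene ADRB1 (chr10:115802801-115805200), the bHLH factor gene ATOH8 (chr2:85980601-85983000) and FOXL2, a forkhead factor of the ovary (chr3:138663801-138666200), had 2400 bp each. The last of the 10 longest with a protein-coding TSS was BMP6, a bone morphogenetic protein ligand (chr6:7726001-7728200), taken by symbol from 9 such regions tied at 2200 bp. Of these 10 regions, 8 had H3K27me3 on both sides. The joined H3K27me3 stretch that held the region measured 15800 bp at NKX2-2, 14600 bp at FOXL2 and 12000 bp at GFI1, several times the bivalent length.

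**Figure D1:**
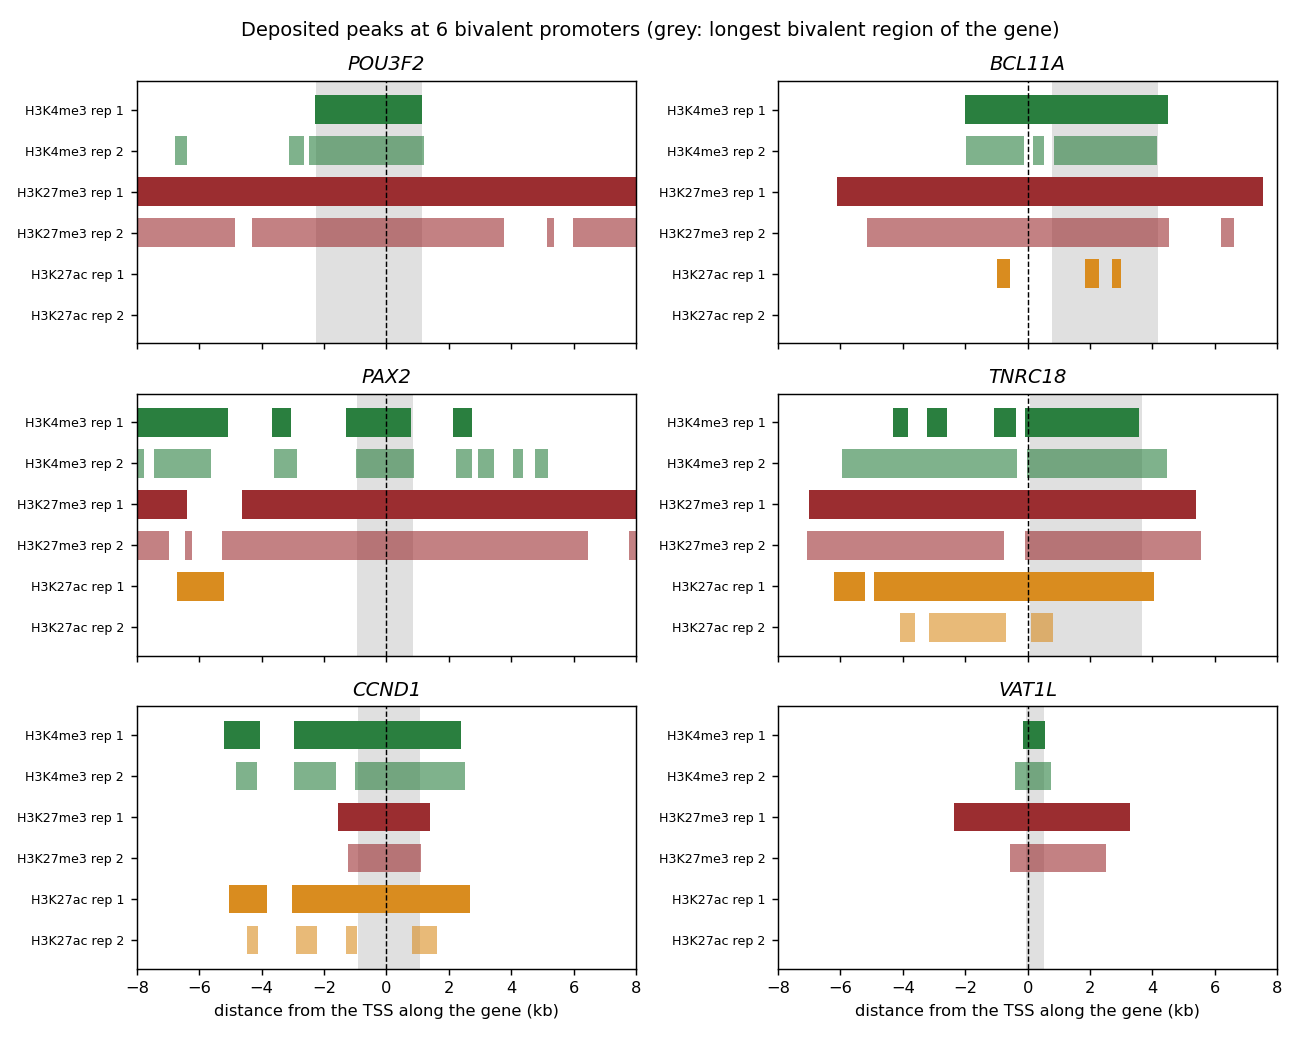
Deposited peaks of each mark and replicate at 6 bivalent promoters, plotted as bars against distance from the TSS along the gene (kb), with the longest bivalent region of the gene in grey. H3K27me3 bars extend past the grey block at POU3F2 and BCL11A, the TNRC18 block also holds H3K27ac in both replicates, and VAT1L has no H3K27ac bar.

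The number of bivalent regions depended on which replicate was read. Replicate 1 alone gave 2041 regions over 1553.2 kb, of whose bins 74.1% were bivalent in both replicates. Replicate 2 alone gave 5436 regions over 3386 kb, of whose bins 34.0% were. The first H3K4me3 list had 29130 peaks with a median width of 1197 bp and the second 73942 peaks of 434 bp, and 8321 bins were kept out of the bivalent set only by the first list. The second H3K4me3 list, and the first and second H3K27me3 lists, kept out 820, 1318 and 717 bins respectively. At the coverage limit itself, 157 bivalent bins had at least 100 and under 110 bp covered in their least covered list, and 179 bins fell just short with at least 90 bp.

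H3K27me3 formed the surroundings of most bivalent regions. The bin next to the region carried H3K27me3 without H3K4me3 on at least 1 side for 1493 regions, 91.8% (90.4 to 93.1%). For 869 regions (53.4%) this was so on both sides, for 480 (29.5%) H3K27me3 lay on 1 side and H3K4me3 on the other, and for 144 (8.86%) H3K27me3 lay on 1 side with no H3K4me3 on the other. The remaining 133 regions (8.18%) had no H3K27me3 on either side. The joined H3K27me3 stretch that held a bivalent region had a median length of 2400 bp (quartiles 1400 and 3600 bp), and the H3K4me3 stretch 1000 bp (600 and 1400 bp). The H3K27me3 stretch was the longer one at 1280 regions and the H3K4me3 stretch at 278. Since the calls of both marks chose these regions, the lengths describe them and test nothing.

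Averaged around the region centres, H3K4me3 fell away faster than H3K27me3. At 1 kb from the centre, toward higher coordinates, H3K27me3 was on in both replicates at 54.4% of regions, and at 5 kb at 10.9%. The replicates differed at 5 kb, where the first H3K27me3 list was on at 23.9% and the second at 12.5%. H3K4me3 was on at 5.29% of regions at 2 kb. H3K27ac was on at the centre of 1.05% of regions in both replicates, with 7.87% in replicate 1 and 1.17% in replicate 2.

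**Figure D2:**
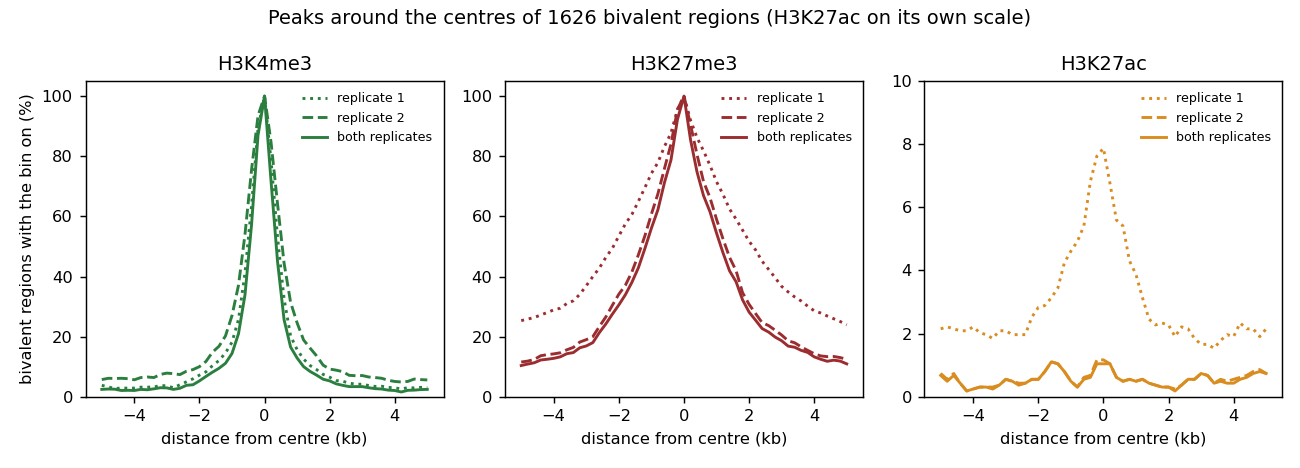
Percent of the 1626 bivalent regions with a mark on in the bin at each distance from the region centre (kb), for both replicates together and for each replicate, with H3K27ac on its own scale. H3K4me3 drops to 5.29% within 2 kb while H3K27me3 is still on at 10.9% of regions at 5 kb, and H3K27ac stays under 10% throughout.

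Where only 1 side carried H3K4me3, it was more often the side upstream of the gene. Of 345 regions with H3K27me3 on 1 side, H3K4me3 on the other, and protein-coding TSSs of only 1 strand within 1 kb, the H3K4me3 side was upstream in 220 (63.8%, 58.6 to 68.7%) and downstream in 125 (36.2%).

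H3K27ac, which the choice of regions did not use, was rare in them. It was on in at least 1 bin of 27 regions, 1.66% (1.14 to 2.41%), against 62.5% of all joined H3K4me3 regions and 0.138% of all joined H3K27me3 regions. Counted by bin, 56 of the 5751 bivalent bins had it, against 46.9% of all H3K4me3 bins. These 56 were most of the 72 bins anywhere that carried H3K27me3 and H3K27ac together. A further 141 regions had H3K27ac in replicate 1 only and 2 in replicate 2 only, and 1456 had it in neither. The first H3K27ac list covered 107 Mb and the second 38.9 Mb. H3K27ac was also uncommon beside the regions: 599 had a neighbouring bin with H3K4me3 but no H3K27me3, and at 14 of these it carried H3K27ac too.

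The 27 regions with H3K27ac were spread over several kinds of gene. The most acetylated was at NRK, a kinase gene on the X chromosome (chrX:105065801-105067000, 1200 bp), with 5 acetylated bins, followed by TNRC18 and DENND2A, a guanine nucleotide exchange factor for a RAB GTPase (chr7:140339601-140340600), with 4 each. Acetylation at TNRC18 continued over 3 further short regions of the same locus. Regions with 3 acetylated bins lay at TFAP2A, an AP-2 transcription factor (chr6:10413601-10415800), GJA1, the gap junction protein connexin 43 (chr6:121757801-121758400), and SMO, the transducer of Hedgehog signals (chr7:128828401-128829600). A region within the glutamate receptor gene GRM5 (chr11:88241601-88242600) was the only one of the 27 with no annotated TSS within 1 kb.

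Most regions that were bivalent in both replicates lay at promoters. An annotated TSS lay within 1 kb of 1327 regions, 81.6% (79.7 to 83.4%), against 86.7% of all joined H3K4me3 regions, and a protein-coding TSS within 1 kb of 1160 (71.3%). This share rested on the use of both replicates: it was 73.5% of the 2041 regions of replicate 1 alone, 50.1% of the 5436 of replicate 2 alone and 40.8% of the 7701 with each mark on in either. The TSS was inside the region in 849 cases (52.2%), and for 478 others the nearest was a median of 260 bp away. The share with a TSS within 1 kb was 72.0% for regions of 200 bp, 79.9% for 400 to 800 bp, 90.5% for 1000 to 1800 bp, and all 35 regions of 2000 bp or more had one. A longer region has more room for a TSS, and this was not corrected for. Only 32 regions had protein-coding TSSs of both strands within 1 kb, against 1128 with those of 1 strand.

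Of the 299 regions without a TSS within 1 kb, 70 lay 1 to 2 kb from one and 88 lay over 10 kb away, with a median of 4142 bp. They were less often island-like (79.3% against 91.6% of regions with a TSS), and H3K27me3 lay on both sides of 56.2% of them against 52.8%. Inside a protein-coding gene lay 110. The longest were 1800 bp within SKOR1, a transcriptional corepressor of the nervous system (chr15:68126801-68128600), and 1400 bp within DMRTA2, a factor of cortical development (chr1:50884001-50885400). The other 3 of the 5 longest, also of 1400 bp, lay at chr1:161418401-161419800, chr10:134601001-134602400 and chr2:66803201-66804600, and were taken by chromosome name from 7 regions tied at that length. None of these 5 had an H3K27ac peak call in either replicate.

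Some bivalent regions stood in runs. With gaps of up to 10 kb, the 1626 regions formed 1404 runs, of which 1233 were single regions and 37 held 3 or more (125 regions in all). The longest run was 6 regions over 11 kb along PAX2, a paired-box factor that nephron progenitors and the ureteric bud require (chr10:102497001-102508000). Runs of 4 regions lay at NR5A2, SP9, NEUROG2, TNRC18, HOXA13, FOXP2, LHX2 and at a stretch of chromosome 1 with no named gene. Apart from TNRC18, the named ones encode transcription factors.

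A bivalent region lay within 1 kb of a TSS of 1546 annotated genes, of which 1446 were measured by RNA-seq. Of the measured ones 1092 were protein-coding, 5.57% of the 19600 protein-coding genes measured, and 273 were long noncoding RNA genes. The number of protein-coding genes was 1221 with replicate 1 of every mark alone and 1797 with replicate 2 alone. A gene is called bivalent here by that distance, although it may have other promoters. By chromosome, the bivalent share of protein-coding genes ran from 1.78% on chromosome 19 and 2.31% on chromosome 21 to 8.55% on chromosome 20 and 8.76% on chromosome 10.

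Most bivalent genes had little RNA. A gene is called expressed where its FPKM was 1 or more in each library, and 218 of 1092 bivalent genes were, 19.96% (17.7 to 22.4%), against 58.9% of all protein-coding genes. The median FPKM of bivalent genes was 0.135 in library 1 and 0.136 in library 2, against 3.27 and 3.39 for all protein-coding genes. Levels of 10 or more in each library were found for 43 bivalent genes (3.94%), against 30.3% of all. With 1 condition and no contrast there is no test of these shares, and genes are not replicates.

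Low RNA was different from no RNA. Bivalent genes listed at exactly 0 in both libraries numbered 163, 14.9%, against 19.5% of all protein-coding genes and 66.5% of the 814 genes with H3K27me3 but no H3K4me3 near a TSS. An FPKM under 0.1 in both libraries was seen for 449 bivalent genes, 41.1%, against 27.9% of all. Without strand, such low levels cannot be told apart from reads of an overlapping gene on the other strand. Of the 814 H3K27me3 genes only 6 were expressed, 0.737%. Among genes that were not bivalent, 92.8% of the 10114 with H3K4me3 and H3K27ac and 64.6% of the 2503 with H3K4me3 alone were expressed. Bivalent genes thus lay between the H3K27me3 genes and those with H3K4me3 alone.

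The share expressed differed with what lay beside the bivalent region. It was 11.2% (8.91 to 14.1%) of 579 genes with H3K27me3 on both sides, and 31.8% (27.03 to 37.03%) of 330 genes with H3K4me3 on 1 side. It was 11.1% (6.32 to 18.8%) of 99 genes with H3K27me3 on 1 side and no H3K4me3 on the other, and 44.05% (33.9 to 54.7%) of 84 genes with no H3K27me3 on either side. Genes can also have a TSS within 1 kb of a region with H3K4me3 and H3K27ac and no H3K27me3, called an active TSS here. It may be a separate TSS or the bivalent TSS itself, as for VAX2. An active TSS was present for 101 bivalent genes, of which 72 (71.3%) were expressed. For the other 991 the share was 14.7%. With the 101 left out, the 4 shares were 7.31% (40 of 547) with H3K27me3 on both sides, 24.0% (66 of 275) with H3K4me3 on 1 side, 10.6% (10 of 94) with H3K27me3 on 1 side and no H3K4me3, and 40.0% (30 of 75) with no H3K27me3. Region length showed no such order: 21.7% at 200 bp, 18.3% at 400 to 800 bp, 21.9% at 1000 to 1800 bp and 19.4% at 2000 bp or more.

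H3K27ac within the region went with RNA. Of the 21 bivalent genes with an H3K27ac bin in their region, 16 were expressed, 76.2% (54.9 to 89.4%), against 202 of 1071 without, 18.9% (16.6 to 21.3%). The interval of the 21 genes includes the 58.9% of all protein-coding genes. The share was 92.8% for genes with H3K4me3 and H3K27ac that were not bivalent. Where H3K27ac was on in replicate 1 only, 65 of 113 bivalent genes were expressed, 57.5% (48.3 to 66.2%). Where neither replicate had it, 136 of 957 were, 14.2% (12.1 to 16.6%). These intervals cover counting error only, genes are not replicates, and the groups were not tested against each other. Of the 21 genes, ATL1 and MAP4K5 share a region. The order of the groups was the same in each RNA-seq library taken alone. Some of these genes also had an active TSS. With such genes left out, 6 of 10 with H3K27ac were expressed (31.3 to 83.2%), a small group with a wide interval. Of those without H3K27ac, 140 of 981 were, 14.3% (12.2 to 16.6%).

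**Figure D3:**
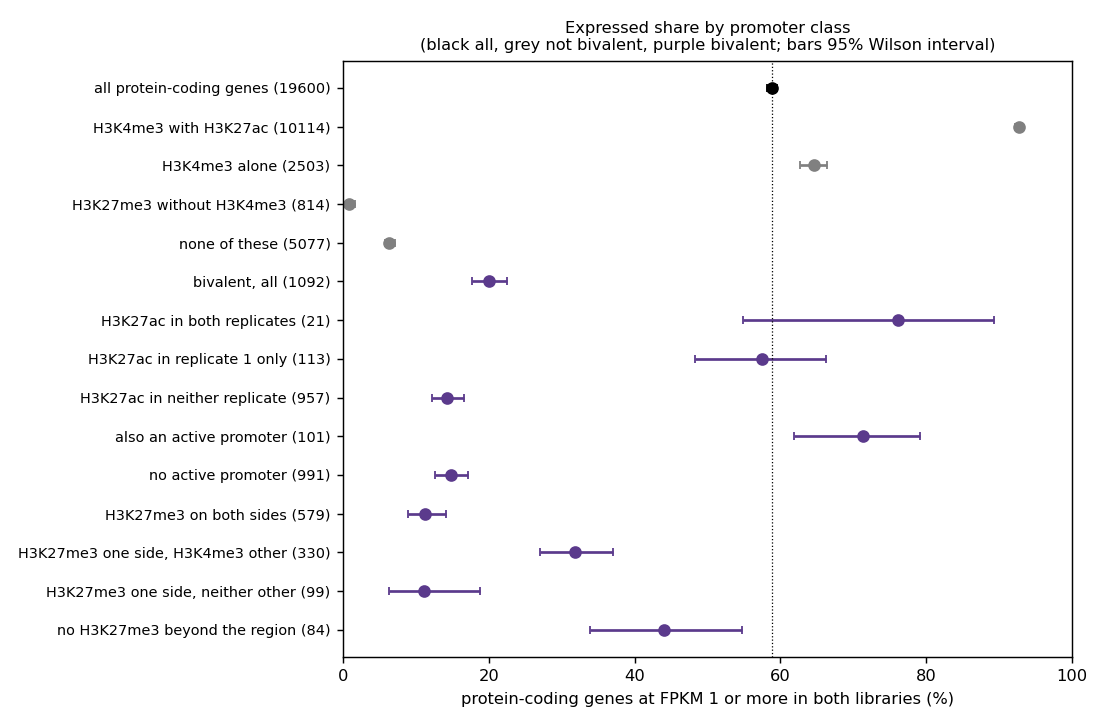
Percent of protein-coding genes at FPKM 1 or more in both libraries, by the marks at their TSSs, with 95% Wilson intervals and the number of genes in brackets. Bivalent genes sit at 19.96%, between genes with H3K27me3 only (0.737%) and those with H3K4me3 alone (64.6%), and bivalent genes with H3K27ac at 76.2%.

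All 21 bivalent genes with H3K27ac were looked at singly, a choice made after their values were seen. The highest was MAP4K5, a kinase of the stress-activated pathway, with an FPKM of 21.3 in library 1 and 23.6 in library 2, but only 0.475% of it came from transcripts that start within 1 kb of a bivalent region. SLCO2A1, the prostaglandin transporter, had 18.8 and 20.2, with 96.9% from such transcripts. CCND1, the cyclin D1 gene that drives entry into S phase, had 16.9 and 16.4, with 96.5%. For SLCO2A1 and CCND1, then, the RNA was assigned to the bivalent TSS itself, and for MAP4K5 to others.

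The CCND1 region (chr11:69455001-69457000, 2000 bp) was covered in full by both H3K4me3 and both H3K27me3 lists. H3K27ac covered all 2000 bp of it in replicate 1 and 267 bp in replicate 2, and beyond its downstream side lay H3K4me3 with H3K27ac. NRK had an FPKM of 4.98 and 5.59, with 99.3% from the bivalent TSS. ATF3, a stress-induced transcription factor, had 5.29 and 6.21, and TFAP2A had 3.54 and 3.52. SOX11, a transcription factor of neural progenitors, had 2.55 and 2.26, all from the bivalent TSS. GJA1 had 4.98 and 4.13, none of it from a TSS within 1 kb of the region. The share from bivalent TSSs was also low for HOXB3 (10.5%), GRB10 (36.9%) and ATL1 (39.4%). Apart from these, MAP4K5 and GJA1, all expressed genes of the 21 took most of their RNA from bivalent TSSs.

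Under the limit despite their H3K27ac were 5 of the 21. FIGNL2 had an FPKM of 0.906 and 0.505, and DLX6, a homeobox factor of limb and forebrain, 0.497 and 0.559. LIN28A, which blocks let-7 maturation in stem cells, had 0.339 and 0.126. ID4, an inhibitor of bHLH factors, had 0.0541 and 0.109, and IQUB 0.0616 and 0.0752. The last 2 had H3K27me3 on both sides of the region, as did LIN28A.

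The highest RNA levels among bivalent genes mostly came from other TSSs. GNAS, which encodes the stimulatory G protein alpha subunit and has several promoters, had an FPKM of 579 and 573, with 0.572% of it from the bivalent TSS, a 200-bp region at chr20:57415401-57415600. CYB5R3, cytochrome b5 reductase, had 62.9 and 60.4, with 0% from the bivalent TSS. MACF1, a cytoskeletal linker, had 52.0 and 68.7, with 14.3%. RNF220, a ubiquitin ligase, had 41.7 and 45.7, with 1.88%, although its leading transcript was put at 0.0413 in library 1 and 24.6 in library 2, so its division among transcripts was unstable. C11orf58 had 49.2 and 37.6 with 0.0295%, ABR, a regulator of small GTPases, 29.4 and 23.2 with 1.01%, and PPIE, a cyclophilin of the spliceosome, 24.5 and 25.9 with 0.111%.

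In contrast, 3 of the 10 highest took most of their RNA from the bivalent TSS. MMP24, a membrane-bound matrix metalloproteinase, had an FPKM of 57.9 and 59.2, all from its bivalent TSS (region chr20:33814001-33814400). H3K27ac covered 396 of the 400 bp in replicate 1 and 0 in replicate 2, and the antisense gene MMP24OS overlaps it with 16.0 and 12.2. FABP5, a fatty acid binding protein, had 24.7 and 21.9 with 98.8%, and as it has near-identical pseudogene copies its level is uncertain. MAD2L2, a subunit of a translesion DNA polymerase, had 49.0 and 51.0 with 66.7%.

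Of the 937 bivalent genes with no H3K27ac bin within 1 kb of any TSS, 123 were expressed. This compares with 218 of all 1092 bivalent genes and 58.9% of all protein-coding genes. The 5 highest were MMP24, PPIE, FABP5, PCSK1N and GAL. Such a bin had to be on in both replicates, and at FABP5 H3K27ac covered 258 of 400 bp in replicate 1 and 0 in replicate 2. PCSK1N, an inhibitor of the prohormone convertase PCSK1, had an FPKM of 20.1 and 18.9, all from its bivalent TSS. Its 400-bp region (chrX:48693601-48694000, part of which is printed above) was covered in full by both H3K4me3 and both H3K27me3 lists and by no H3K27ac peak. GAL, the neuropeptide galanin, had 20.3 and 18.5, all from its bivalent TSS (chr11:68451801-68452600), where H3K27ac covered 491 bp in replicate 1 and 0 in replicate 2.

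**Figure D4:**
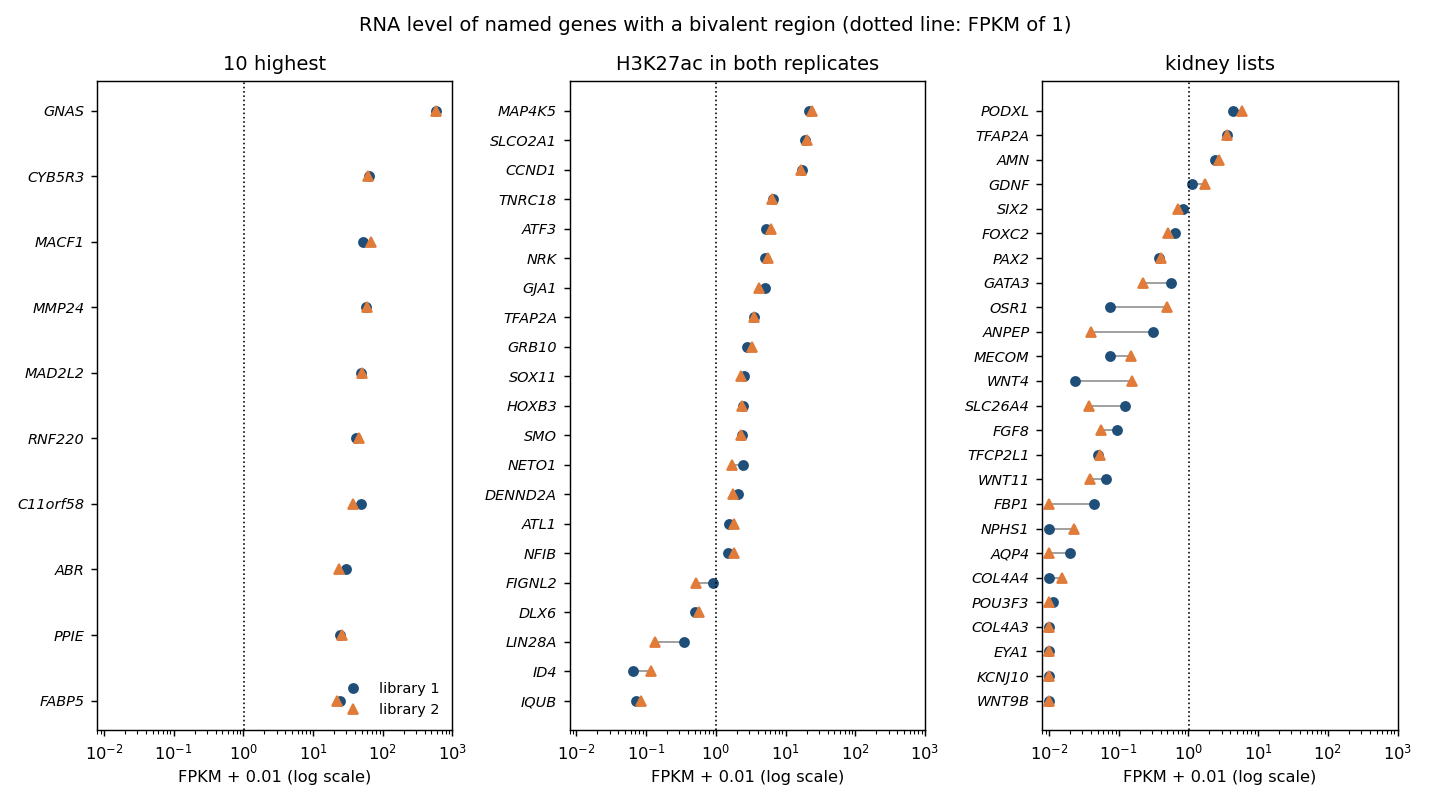
FPKM of named bivalent genes in library 1 (circles) and library 2 (triangles) on a log axis, with 0.01 added and the limit of 1 dotted. GNAS lies above 500 in both libraries, the genes with H3K27ac run from MAP4K5 at 21.3 and 23.6 down to ID4 and IQUB near 0.1 or below, and the 2 libraries lie close together for nearly all expressed genes.

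Over the 218 expressed bivalent genes, the split between TSSs was wide. At least 50% of the FPKM, averaged over the libraries, came from bivalent TSSs in 123 genes and under 10% in 54. The median was 16.0% for the 72 genes that also had an active TSS and 83.5% for the 146 without. Summed over the 218 genes, 31.9% of all FPKM came from bivalent TSSs, and 44.2% without GNAS. The assignment of reads to transcripts is an estimate, and it differed between the libraries by a median of 2.47 percentage points and by over 20 points for 27 genes. Strand was not stated for the RNA-seq. A gene on the other strand overlapped 126 of the 218 expressed genes (57.8%) and 488 of the 874 others (55.8%), and for 19 expressed genes that other gene had the higher FPKM. Among the 478 bivalent genes free of such overlap 92 were expressed, 19.2% (16.0 to 23.02%), against 52.0% of all 9360 protein-coding genes free of it.

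The 2 libraries gave similar levels. Across the bivalent protein-coding genes their Pearson r on log10(FPKM + 1) was 0.986, a description across genes, which are not independent. The limit was passed in 1 library only by 37 genes, and among the 244 genes averaging 1 FPKM or more, the libraries were over 2-fold apart for 9. Among the 273 long noncoding RNA genes at bivalent regions, 0 were expressed in both libraries, which allows a share of up to 1.39% (Wilson upper bound), against 4.86% of all 14097 measured.

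The lists of genes below were grouped by role, with the bivalent share of each set beside the 5.57% of all protein-coding genes. Regulators of development stood well above it, with 88 of 345 measured members bivalent, 25.5% (21.2 to 30.4%). Signalling genes were at 24.9% (45 of 181, 19.1 to 31.6%) and channels and neurotransmitter receptors at 19.8% (47 of 237, 15.3 to 25.4%). Adhesion and matrix genes were at 9.39% (26 of 277, 6.49 to 13.4%) and solute carriers at 7.03% (27 of 384, 4.88 to 10.0%), whose interval includes the background. A pooled set of ribosomal proteins, proteasome and respiratory chain subunits and ZNF genes held 6 of 704, 0.852% (0.391 to 1.85%). Of the 704, 579 were expressed. Most members were zinc finger genes named ZNF, with 5 of 508 bivalent and 393 expressed, so the pooled share is mainly theirs. Of the housekeeping lists without them, ribosomal proteins held 0 of 84, proteasome subunits 0 of 44 and respiratory chain subunits 1 of 68. No set test was made, and the lists were not chosen independently of earlier results.

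**Figure D5:**
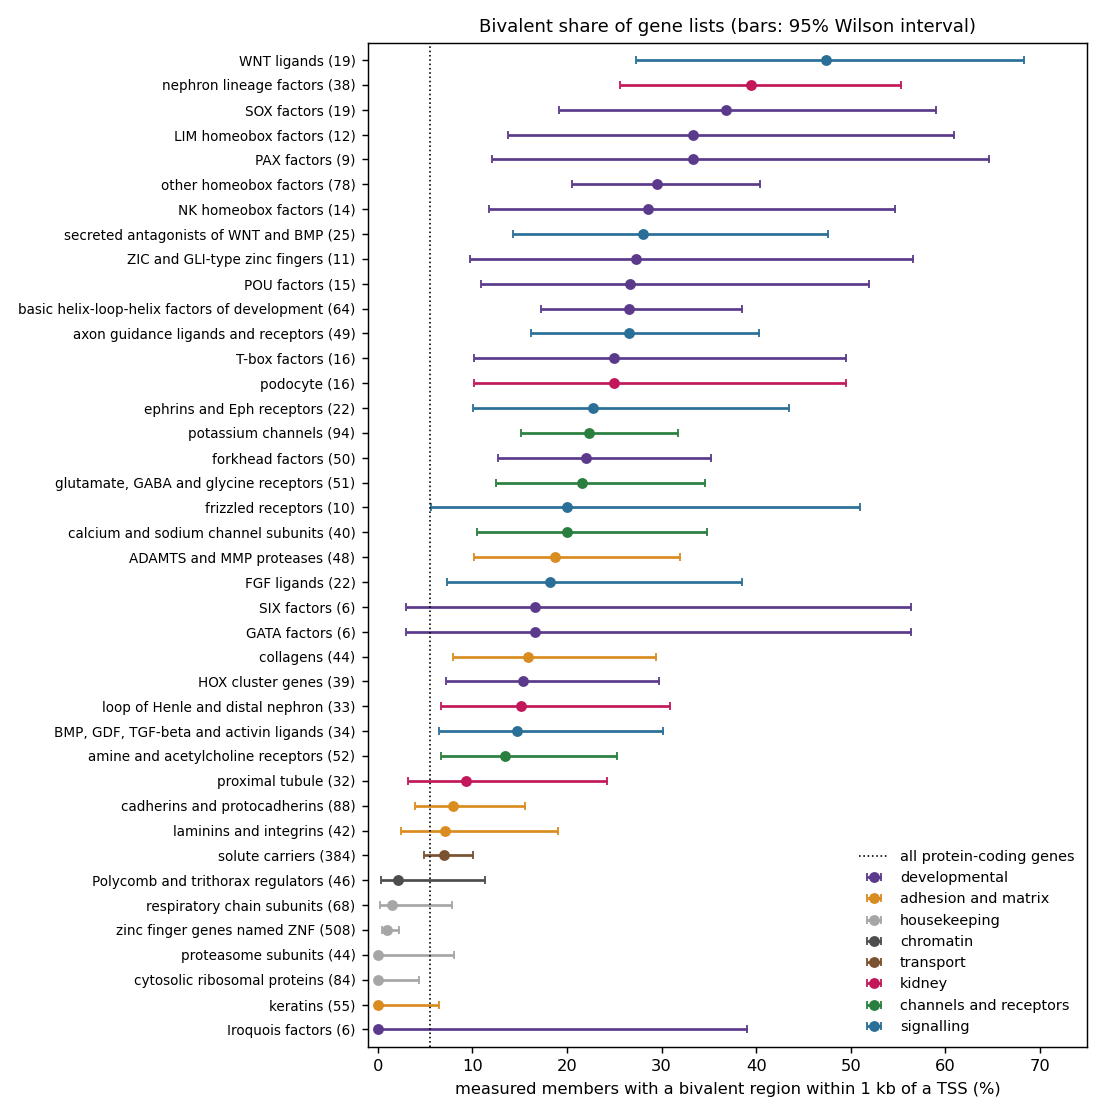
Percent of the measured members of each gene list with a bivalent region within 1 kb of a TSS, with 95% Wilson intervals and the number measured in brackets, beside the 5.57% of all protein-coding genes (dotted). WNT ligands (47.4%) and nephron lineage factors (39.5%) lie highest, and keratins, ribosomal proteins, proteasome subunits and Iroquois factors are at 0. Lists can share genes.

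Among transcription factor families, SOX factors were bivalent in 7 of 19 cases (36.8%), LIM homeobox factors in 4 of 12, PAX factors in 3 of 9, other homeobox factors in 23 of 78 (29.5%), bHLH factors in 17 of 64, forkhead factors in 11 of 50 (22%) and HOX genes in 6 of 39 (15.4%). The bivalent members were mostly quiet. None of the 11 forkhead genes was expressed: FOXP2, a factor of brain development, had an FPKM of 0.186 and 0.364, and FOXC2, a factor of mesoderm and kidney development, 0.641 and 0.493. SOX9, which drives cartilage and testis formation and tubule repair, had 0.285 and 0.333. LHX9, with 3000 bp of bivalent regions, had 0.0589 and 0.114, and HOXA13, a factor of the distal limb and urogenital tract, 0.0966 and 0.0865.

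Only 11 of the 88 bivalent developmental genes were expressed, against 111 of all 345. Their median FPKM was 0.0654 in library 1 and 0.0888 in library 2, and that of the 257 members without a bivalent region 0.145 and 0.123, so both medians were low. Of those 257, 100 were expressed, with medians of 4.83 and 4.68. Of the 345, 75 had H3K27me3 without H3K4me3 near a TSS and 89 had an active TSS and no bivalent region. PAX6, the paired-box factor of eye and pancreas, was the highest of the 11 with 7.45 and 7.32, of which 3.20% came from the bivalent TSS. LHX6 had 3.25 and 4.26, GLIS1 2.004 and 1.88 and LHX2 1.58 and 2.02. The others were DMBX1, SOX11, HOXB3, VAX2, HMX2, NPAS1 and TCF24, all under 3.

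The signalling genes included both ends of several pathways. WNT ligands had the highest share of any list, 9 of 19 (47.4%, 27.3 to 68.3%), and 2 of the 9 were expressed: WNT7B with an FPKM of 7.29 and 7.06, and WNT3 with 1.57 and 1.06. WNT11, which acts in ureteric bud branching and had 2600 bp of bivalent regions, stood at 0.0548 and 0.0282. Frizzled receptors, which bind WNT ligands, were bivalent in 2 of 10 cases. Secreted antagonists of WNT and BMP were in 7 of 25 cases, of which FSTL1, with 6.58 and 6.54, was expressed. BMP and related ligands were bivalent in 5 of 34 cases and none of the 5 was expressed: BMP4, which patterns the ureteric mesenchyme, had 0.406 and 0.917, and BMP6 0.0285 and 0.0586. FGF ligands were in 4 of 22 cases, with FGF9 listed at 0 in both libraries.

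Axon guidance genes were bivalent in 13 of 49 cases. NTNG2, a netrin-related membrane protein with 3400 bp of bivalent regions, had an FPKM of 0.274 and 0.342, whereas SLIT2, a repellent ligand that also limits the site of kidney outgrowth, had 2.63 and 2.64. Ephrins and their receptors were in 5 of 22 cases, and EFNA1 was the highest with 4.46 and 4.05. Potassium channels were in 21 of 94 cases (22.3%), 3 of them expressed, with KCNG1 highest at 3.04 and 2.38. GRIN1, the obligate NMDA receptor subunit, had 2800 bp of bivalent regions and 0.629 and 0.580. ADRB1 had 0.495 and 0.384, and ADRA2A, the alpha-2A adrenergic receptor, 0.150 and 0.223.

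Collagen genes were bivalent in 7 of 44 cases and none of them was expressed. ADAMTS and MMP proteases were in 9 of 48 cases, with MMP24 and ADAMTS16 (1.61 and 1.27) expressed. Among solute carriers, SLCO2A1 was the highest, followed by the facilitative glucose transporter SLC2A3 with 6.14 and 6.23, of which 0% came from the bivalent TSS. SLC4A11 came next with 2.32 and 2.44. Of 46 Polycomb and trithorax genes, which write, read or oppose these marks, all were expressed, against 58.9% of all protein-coding genes. EZH2 was at 23.9 and 22.6. BMI1, a subunit of Polycomb repressive complex 1, was the 1 bivalent member, and it had 9.57 and 9.34, with 82.5% from its bivalent TSS. The bivalent share of the list was 2.17% (0.385 to 11.3%), and this interval includes the 5.57% of all protein-coding genes.

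Kidney genes were read by lists of their own, as HK2 is a tubule line, and these lists share genes with those above. Over 4 kidney lists, 26 of 117 genes were bivalent, 22.2% (15.6 to 30.6%), and 4 of the 26 were expressed. The nephron lineage factors, which act in the progenitors and the ureteric bud, held 15 of 38, 39.5% (25.6 to 55.3%). Of the 15, PAX2, SIX2, FOXC2, GATA3 and POU3F3 were also counted among the regulators of development, and WNT11 among the WNT ligands. The share therefore partly repeats those above. PAX2 had an FPKM of 0.372 and 0.400, all from its bivalent TSS, and SIX2, which maintains the nephron progenitor pool, had 0.828 and 0.694. OSR1, an early factor of the intermediate mesoderm, had 0.0652 and 0.485, a wide spread between libraries. EYA1, a coactivator of SIX2, and WNT9B, the ureteric bud signal that induces nephrons, were listed at 0 in both libraries, and WNT4, which drives the tubule transition, had 0.0137 and 0.143.

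The other bivalent nephron lineage genes ranged as widely. GATA3, a factor of the ureteric bud and collecting duct, had 0.557 and 0.211, MECOM 0.0645 and 0.142, FGF8 0.0854 and 0.0453 and POU3F3 0.00144 and 0. FOXC2 and WNT11 are given above. GDNF, the mesenchymal signal for ureteric budding, had 1.12 and 1.72, and TFAP2A 3.54 and 3.52, so these 2 of the 15 were expressed. In contrast PAX8 (100 and 104) and LHX1 (61.9 and 60.1), factors of the same programme, had active TSSs and no bivalent region.

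Genes of mature kidney segments were then read by segment. Podocyte genes were in 4 of 16 cases: PODXL, the surface sialomucin podocalyxin, was expressed at 4.41 and 5.85 from a 1400-bp region (chr7:131240601-131242000), NPHS1, the slit diaphragm protein nephrin, had 0 and 0.0127, and the divergent collagen IV genes COL4A3 and COL4A4 had 0 in both and 0 and 0.00549. Loop of Henle and distal nephron genes were in 5 of 33 cases, none expressed, with TFCP2L1, a factor of the collecting duct, at 0.0398 and 0.0437, the anion exchanger SLC26A4 at 0.112 and 0.0274, the water channel AQP4 at 0.01003 and 0, the potassium channel KCNJ10 at 0 in both, and GATA3.

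Proximal tubule genes were bivalent in 3 of 32 cases, 9.38% (3.24 to 24.2%). AMN, which anchors the receptor cubilin, had 2.43 and 2.76, but the gene CDC42BPB overlaps it on the other strand with 53.5 and 51.5, and these reads cannot be told apart without strand. ANPEP, a brush border aminopeptidase, had 0.297 and 0.0296, and FBP1, an enzyme of gluconeogenesis, 0.0335 and 0. Of the whole proximal tubule list 11 of 32 genes were expressed, among them DPP4, a brush border peptidase, at 28.7 and 32.5 and MIOX, a myo-inositol oxygenase, at 11.2 and 12.3. Of a shorter set of 11 defining markers 3 were expressed (SLC5A2, GGT1 and SLC4A4), and LRP2, SLC22A6 and HNF4A were listed at 0 in both libraries. Epithelial markers were expressed in 4 of 5 cases, with KRT8 at 179 and 184. Mesenchyme markers were expressed in 2 of 4 cases, VIM at 709 and 1133 and COL1A1 at 40.3 and 39.9, while COL1A2 was listed at 0 in both and DCN had 0.659 and 0.0525. Endothelial markers were in 0 of 3 cases, leukocyte markers in 1 of 3 (CD68) and podocyte markers in 1 of 4 (SYNPO). Any part of the cell state of this line in its bivalent calls was not tested.

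The fifth epithelial marker was itself bivalent. CDH1, which encodes E-cadherin of epithelial junctions, had a 600-bp bivalent region at chr16:68771001-68771600, with H3K27me3 on both sides and no H3K27ac call, and an FPKM of 0.210 and 0.283. CDH1 was chosen for mention after its values were seen. VAT1L, a gene of the vesicle amine transport protein 1 family, had a 600-bp region at chr16:77822401-77823000 over its TSS. Peaks covered all 600 bp in both H3K4me3 and both H3K27me3 lists, no H3K27ac peak touched it, and the H3K27me3 stretch around it measured 3200 bp. Its FPKM was 0.0138 and 0.0142, below the lower quartile of bivalent genes.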

How the data were processed

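HK2 cells were profiled by ChIP-seq of 3 histone marks and by RNA-seq. The authors aligned ChIP reads with Bowtie2 (hg19), used those with a unique position, called peaks in each replicate with MACS2 and deposited peak positions only (3 columns), so heights and scores were not used here and the files carry no depth. The authors mapped RNA reads with HISAT2 and estimated levels with StringTie 1.3.3, and the deposited values are FPKM and TPM per gene and transcript, which carry no depth. The methods name hg19 for RNA, but the deposited transcripts are those of GENCODE 27 on GRCh38, so genes were joined by Ensembl identifier: 55859 of 58243 genes and 193986 of 200243 transcripts matched the GENCODE 44 annotation on GRCh37, whose 254404 transcript starts were used. The first replicate of each mark carries no number in the labels and was taken as replicate 1.

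Bins of 200 bp were called on at 100 bp covered in both replicates. A gene was bivalent with a region within 1 kb of a TSS and expressed at FPKM 1 or more in both libraries. Shares have 95% Wilson intervals, and there was no test, since the study has 1 condition. The scripts used Python 3.11.15, numpy 2.4.6, pandas 2.3.3, scipy 1.17.1, pysam 0.24.0 and matplotlib 3.10.9. Their calling of regions and of TSSs near them was tested on simulated peaks and TSS positions with known answers. The handling of RNA levels was not tested in this way. The reference sequence is GRCh37.

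The members and gene lists were chosen with earlier results of these data known. Named were the 10 longest regions with a protein-coding TSS, the 5 longest without a TSS, the 5 with most H3K27ac, the 10 genes of highest mean FPKM, the 5 highest without H3K27ac near a TSS, up to 3 members per list with the most bivalent base pairs, all kidney list members, and VAT1L. A few genes that these rules name are not reported here. The further genes with H3K27ac (CCND1 among them), the expressed members of lists, the genes of runs, the cell type markers and BMI1 were named after their values were seen. Printed windows were moved off untranslated sequence. Alternatives changed the use of replicates, bin coverage, bin position, region length, TSS window, expression limit, unit and gene set.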

Additional observations from a re-analysis of the deposited data

How the results depend on the processing

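Of 83 values recomputed under 17 alternatives, 53 moved by less than their counting interval (counts by under 1.5 times) and 30 moved more. Leaving out 1 replicate of every mark gave 2041 to 5436 regions, 2.34 to 9.51% of them with H3K27ac, 50.1 to 73.5% with a TSS within 1 kb, and 1221 to 1797 genes, of which 19.6 to 20.9% were expressed. Of genes with H3K27ac 61.1 to 80.5% were then expressed, and of those without 15.5 to 18.2%. With 1 RNA-seq library, 21.4 to 21.9% were expressed, and 20.4 to 20.8% of those without H3K27ac. A mark on in either replicate gave 7701 regions, 5.35% with H3K27ac and 40.8% with a TSS, and 1984 genes, of which 13.0% of those without H3K27ac were expressed. The number of regions thus depended on the replicates used, and the H3K27ac share was highest with replicate 1 alone.

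The TSS share was 83.5% with all 200 bp of a bin covered, 83.9% for regions of at least 400 bp, 52.2% for a TSS inside and 85.9% within 2 kb. The share of bivalent genes expressed was 32.1% at a TPM of 1 (all protein-coding genes 63.9%), 27.4% at an FPKM of 0.5 (62.4%), 6.04% at 5 (43.2%), 27.3% among genes above 0 (78.6%), 15.3% over all annotated genes (23.3%) and 14.7% without genes that had an active promoter bin (22.3%). Each of these 6 was below the share in brackets, that of all such genes. Without H3K27ac these were 31.1, 26.3, 5.696, 26.0, 14.5 and 14.3%. With H3K27ac the share was 91.7% with all 200 bp covered, 23.8% at an FPKM of 5 and 45.7% over all annotated genes. At an FPKM of 5 it was below the 43.2% of all such genes, and over all annotated genes above the 23.3%. The causes were not tested. No paired analysis was possible because the study has 1 condition and no result comes from a test between groups.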
